A study of Mus musculus with 4 samples.

Results

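The crosslink sites described here lie on the chromosome 17 copy of the 45S ribosomal precursor RNA, Rn45s, in neonatal mouse cardiomyocytes that expressed SRSF4 fused to GFP. They were chosen by position: every listed plus-strand site within a window of chromosome 17 (mm9 build) that holds this copy, a window picked because its depth was already known. The window held 1496 of the 33749 sites in the list and 15626 of its 93371 cDNAs. The study asked where SRSF4, an SR-family splicing factor, touches RNA. It used iCLIP, in which ultraviolet light fixes a protein to its RNA and reverse transcription tends to stop next to the fixed nucleotide, so that cDNA starts give contact positions. Cardiomyocytes of C57BL/6 mice at P0 or P1 received 15 μg of modified RNA (modRNA) encoding SRSF4-GFP by lipofection, were irradiated 48 h later with 100 mJ at 254 nm, and were used for an anti-GFP pull-down. All 4 libraries belong to this 1 group, so every library carries the transfected fusion protein, and no library of GFP alone, of input or of untransfected cells is among them. Only the summed list of significant sites was analysed, so no spread between libraries can be given. All intervals are 95% exact binomial or Poisson intervals that take counts as independent, and they hold counting error alone. The rRNA sites carry no information on the labelled cell type, which was not checked against its markers here.

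Ribosomal RNA is made in the nucleolus by RNA polymerase I as 1 long precursor. It begins with a 5′ external transcribed spacer, which is cut away and degraded, followed by the 18S RNA of the small ribosomal subunit, an internal spacer, the 5.8S RNA, another internal spacer and the 28S RNA. A read in the spacer therefore comes from precursor or its fragments, whereas a read in the 18S sequence can come from precursor or from mature ribosomes, and the data cannot tell these apart. The genes are repeated in many near-identical copies, so the sites on chromosome 17 stand for reads from any copy that the authors' mapping placed there. The treatment of reads that fit several places was not given in the sources used here.

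Landmarks of the unit were taken from annotation of a later build, GRCm38, and are shown because the comparison turns on where the spacer ends and 18S begins. No coordinate was converted, and the bases at the crosslink sites themselves were not read, since a genome of mm9 was not used here. On GRCm38 the noncoding model Gm26917 (GENCODE M21, chr17:39843013-39846341, plus strand, 3329 nt) lies directly before the 18S unit Rn18s-rs5 (RefSeq, chr17:39846354-39848202, 1849 nt), with 12 nt between them. RefSeq types Rn18s-rs5 as a pseudogene, and GENCODE places the rRNA model CT010467.1 there on the minus strand, 1 nt earlier. The 18S sequence below is the reverse complement of that model's longest transcript, which opens with the 5′ end of 18S RNA when read this way. GENCODE types Gm26917 as a lincRNA, and that it stands for the spacer is taken here from its place before 18S and was not tested. Capitals mark the first 20 bases of Gm26917, its last 20 bases, and the first 20 bases of 18S.
Gm26917 start, GRCm38 chr17:39843013-39843072, plus strand: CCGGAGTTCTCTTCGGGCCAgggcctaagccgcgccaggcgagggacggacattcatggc
Gm26917 end, GRCm38 chr17:39846282-39846341, plus strand: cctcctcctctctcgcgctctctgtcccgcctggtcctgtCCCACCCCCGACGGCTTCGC
18S start, GRCm38 chr17:39846353-39846412, plus strand: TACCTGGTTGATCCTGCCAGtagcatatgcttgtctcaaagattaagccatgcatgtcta

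The sites fell into an upstream and a downstream run with nothing listed between them. A run is a series of sites with steps of under 500 nt. The upstream run, from 39979937 to 39981079 (mm9, plus strand), covered 1143 nt and held 431 sites with 1026 cDNAs. The downstream run, from 39983381 to 39985047, covered 1667 nt and held 1065 sites with 14600 cDNAs. Between them lay 2301 nt without a listed site. The downstream run thus held 71.2% of the Rn45s sites (interval 68.8% to 73.5%) but 93.4% of the Rn45s cDNAs (93.0% to 93.8%).

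The downstream run was deeper in listed cDNAs than the upstream run by every measure taken. It carried 876 cDNAs per 100 nt (interval 862 to 890) and the upstream run 89.8 (84.4 to 95.4), a ratio of 9.76 (9.16 to 10.4). Most of that ratio came from depth at each site, at a mean of 13.7 cDNAs per site against 2.38, a ratio of 5.76 (5.41 to 6.14). Site density contributed less, with a listed site at 63.9% of nucleotides in the downstream run and 37.7% in the upstream run, a ratio of 1.69 (1.51 to 1.90). The ratio of site density is capped, because a site is 1 nt wide and no more than every nucleotide can have one. Depth per site has no such cap. Because the locus was chosen with these depths known, the contrast is a description and was given no test.

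**Figure D1:**
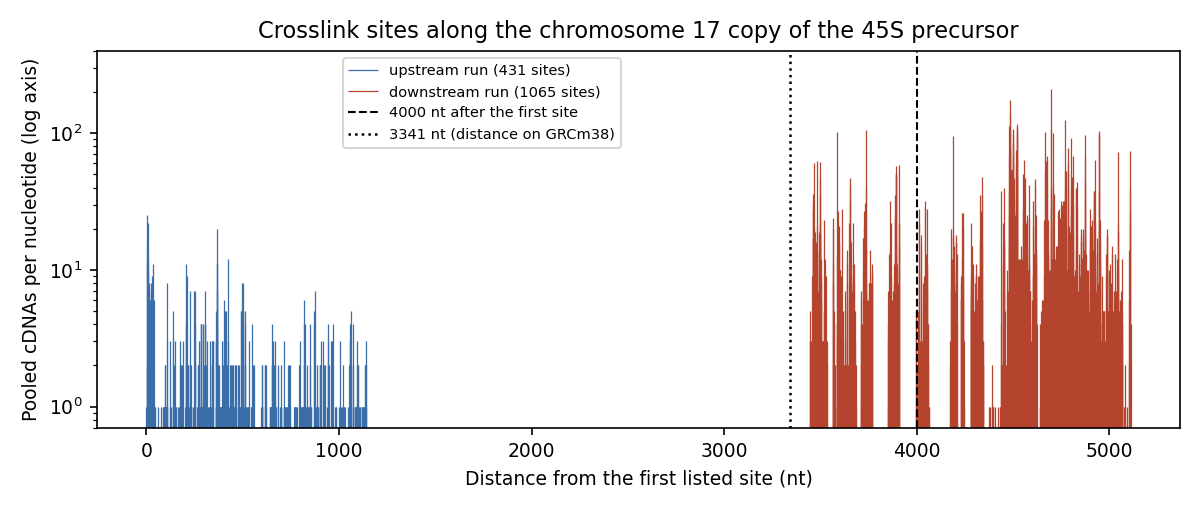
Pooled cDNAs at each listed site (vertical axis, logarithmic) against distance from the first listed site (horizontal axis, nt), with the upstream run in blue and the downstream run in red; the dashed line is 4000 nt and the dotted line 3341 nt after the first site. The 431 upstream sites reach at most 25 cDNAs, the 1065 downstream sites reach 209, and the dashed line cuts through the downstream run whereas the dotted line lies before it.

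Where the spacer is taken to end decides how the downstream run is named. A spacer length of about 4 kb came with the choice of the locus and not from the annotation used here. The split fixed for the comparison was 4000 nt after the first listed site, at 39983937. On that split 292 sites and 2979 cDNAs of the downstream run fell on the spacer side. The spacer side then held 723 sites and 4005 cDNAs, a density of 100.1 cDNAs per 100 nt, and the 18S side 773 sites and 11621 cDNAs over 1111 nt, or 1046 per 100 nt. The ratio was 10.4 (10.1 to 10.8). Its spacer side includes the empty 2301 nt, and with nucleotides outside runs left out the ratio was 4.44 (4.28 to 4.60).

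The GRCm38 annotation gave a shorter distance. There the 18S unit begins 3341 nt after the start of Gm26917, and the downstream run began 3444 nt after the first listed site on mm9. Split at 3341 nt, a choice made after the data were seen, none of the downstream run fell on the spacer side and all 1065 of its sites on the 18S side. The spacer side then held 30.7 cDNAs per 100 nt and the 18S side 825, a ratio of 26.9 (25.2 to 28.6). Most of the empty 2301 nt counts as spacer in that ratio. The same sites compared by the widths of their own runs gave 9.76 (9.16 to 10.4). Any split inside the empty 2301 nt separates the same sites. Both distances assume that the first listed site lies near the start of the unit. The 3341 nt also assume that Gm26917 starts near the start of the precursor and that mm9 and GRCm38 have the same spacing here. None of these assumptions was tested. The width of the downstream run, 1667 nt, is below the 1849 nt of the annotated 18S unit. With the first listed site set at the start of Gm26917, the run began 103 nt after the start of Rn18s-rs5. It ended 79 nt before the end of Rn18s-rs5. This placement rests on the same untested assumptions. The 4 kb length that came with the choice of the locus and the GRCm38 spacing therefore disagree over the first part of the downstream run. The runs are named here by position.

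Within the upstream run, cDNAs were densest at the very start, whereas listed sites were not. Its first 100 nt held 45 sites with 235 cDNAs, 22.9% of the run's cDNAs (interval 20.4% to 25.6%) on 10.4% of its sites. The 100 nt with the most sites, 54 with 145 cDNAs, lay further in, from 39980237 to 39980336. The first 10 nt alone held 9 sites with 101 cDNAs, and 6 of these sites had 10 or more. The highest upstream site, 39979941, had 25 cDNAs (interval 16.2 to 36.9) and lay 4 nt after the first listed site, which itself had 1 cDNA. The next was 39979944 with 22 cDNAs, and 39979942 and 39979943 had 16 and 12, the latter tied with 39980359 at 12. The third highest, 39980306, had 20 cDNAs and made up 32.8% of the cDNAs within 5 nt of it. An unbroken stretch of 15 nt from 39979939 to 39979953, with a site at each nucleotide, held 13.5% of the upstream cDNAs.

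The later part of the upstream run was shallower than the earlier part. When sites less than 30 nt apart were joined, a rule chosen after the data were seen, the run formed 2 pieces. The first, to 39980495, held 252 sites and 733 cDNAs, a density of 131 per 100 nt. It includes the dense first 100 nt described above. The second, from 39980533 to 39981079, held 179 sites and 293 cDNAs at 53.6 per 100 nt, with no site above 7 cDNAs. The ratio of the first to the second was 2.45 (interval 2.13 to 2.81). Among full 100 nt bins of the run, the fewest cDNAs were 37, from 39980637 to 39980736. The bin in which the run ends had 23 cDNAs on the 43 nt that belong to the run, and the 22 bins after it were empty.

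**Figure D2:**
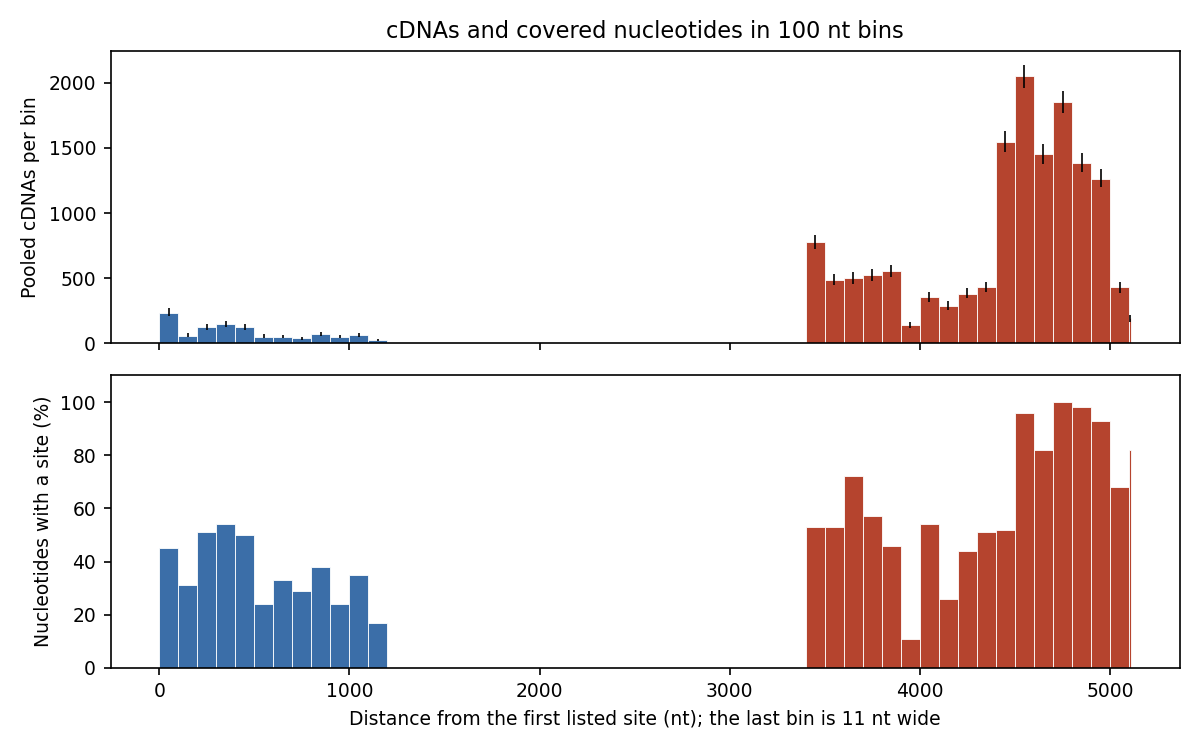
Pooled cDNAs (upper panel) and percent of nucleotides with a listed site (lower panel) in 100 nt bins counted from the first listed site, upstream run in blue and downstream run in red; bars on the cDNAs are 95% exact Poisson intervals, drawn only for bins with cDNAs, and the last bin is 11 nt wide. The upstream bins hold 23 to 235 cDNAs, 22 bins hold none, and the tallest downstream bin holds 2049.

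The downstream run was itself uneven, with separate short pieces in its first part and a long piece at its end. It formed 7 pieces separated by 6 empty stretches that together covered 368 nt. The 3 longest empty stretches inside it were 108 nt from 39984003, 86 nt from 39983847 and 80 nt from 39983706. The piece that opens the run, from 39983381 to 39983470, held 78 sites and 915 cDNAs, a density of 1017 per 100 nt. The next, from 39983500 to 39983705, held 157 sites and 1370 cDNAs. Each of the following 4 pieces was 61 to 71 nt wide and held 363 to 683 cDNAs, with the fewest per 100 nt, 519, between 39983933 and 39984002. All 6 pieces were narrower than the piece that follows them.

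The last piece carried most of the Rn45s signal. From 39984314 to 39985047, 734 nt held 605 sites and 10178 cDNAs, 65.1% of all Rn45s cDNAs. Its density was 1387 cDNAs per 100 nt (interval 1360 to 1414) against 474 over the 933 nt of the run before it, a ratio of 2.93 (2.82 to 3.03). The 933 nt include the 368 empty nt that divide the pieces. Over the 565 nt inside the 6 earlier pieces the density was 783, and the ratio 1.77 (1.71 to 1.84). The mean was 16.8 cDNAs per site in the last piece and 9.61 before it. Inside pieces the share of nucleotides with a site was 82.4% in the last and 81.4% over the 6 earlier ones, which ranged from 70.4% to 95.5%. The whole of the last piece lies after both splits.

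The 4 longest unbroken series of sites lay in this last piece. The longest ran for 233 nt from 39984584 to 39984816, with at least 1 and a median of 11 cDNAs at every nucleotide. It held 4242 cDNAs, 29.1% of the downstream run. The second covered 73 nt from 39984819 to 39984891 and held 1166 cDNAs. The third covered 59 nt from 39984411 to 39984469 and held 2549 cDNAs at a median of 25 per nucleotide, the deepest of the 3 by that measure. In the upstream run the longest unbroken stretch was 16 nt. By 100 nt bins the most cDNAs, 2049 (interval 1961 to 2140), lay between 39984437 and 39984536, where 96.0% of nucleotides had a site, while every nucleotide had one between 39984637 and 39984736. The full bin with the fewest cDNAs after the 4000 nt split, from 39984037 to 39984136, had 289, and the bin just before the split had 141.

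**Figure D3:**
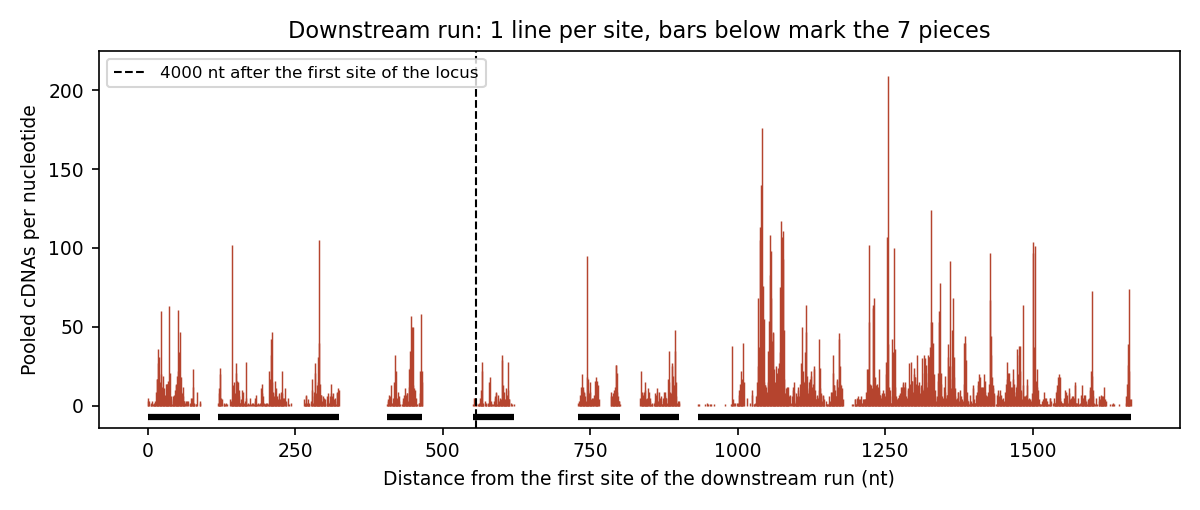
Pooled cDNAs per nucleotide (vertical axis, linear) against distance from the first site of the downstream run (horizontal axis, nt); each red line is 1 site, black bars mark the 7 pieces, and the dashed line is 4000 nt after the first site of the locus. The last piece, 734 nt wide, holds the highest site with 209 cDNAs and all 10 highest sites, and empty stretches of up to 108 nt separate the pieces before it.

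The highest sites gathered at a few places of the last piece. All 10 highest Rn45s sites lay in it, with 107 to 209 cDNAs each. The highest, 39984635, had 209 cDNAs (interval 182 to 239), and its neighbour 39984634 had 107. The 209 cDNAs made up 46.9% of all cDNAs within 5 nt, a sharp peak. Of the 10 highest, 7 lay within 40 nt, from 39984418 (113 cDNAs) through 39984421 (140), 39984422 (176), 39984436 (108), 39984455 (117) and 39984456 (107) to 39984457 (111). None of these 7 held more than 20.5% of the cDNAs within 5 nt of it, so high sites stood beside other high sites. They formed 3 groups rather than 1 peak, at 39984418 to 39984422, at 39984436 and at 39984455 to 39984457. The remaining one, 39984708, had 124 cDNAs. Neighbours in this order are not separated by counting error: the interval was 93.1 to 136 for the site with 113 cDNAs and 87.7 to 129 for each of those with 107.

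On the spacer side of the 4000 nt split, the 5 highest sites were all in the downstream run and none in the upstream run. The site 39983671 had 105 cDNAs (interval 85.9 to 127) and 39983524 had 102 (83.2 to 124). The latter held 61.8% of the cDNAs within 5 nt, the largest such share among these 5 sites. The other 3 were 39983417 with 63 cDNAs, 39983433 with 61 and 39983403 with 60, all within the piece that opens the downstream run. The last listed site of the locus, 39985047, had 4 cDNAs.

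The cDNAs of Rn45s were spread over many sites, though unevenly. The 10 highest sites held 8.40% of its 15626 cDNAs (interval 7.97% to 8.84%), and 151 sites, 10.1% of the sites, were needed to reach 50% of them. Elsewhere in the list 10.4% of sites were needed to reach 50% of cDNAs. In the chromosome 19 and mitochondrial runs described below these shares were 19.8% and 9.17%. In the downstream run 130 sites reached 50%, which was 12.2% of its sites, and in the upstream run 78, which was 18.1%.

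Set beside the rest of the list, Rn45s stood out in its share of cDNAs more than in its share of sites. It made up 4.43% of the list's sites and 16.7% of its cDNAs (interval 16.50% to 16.98%). Of the 120 sites in the list with 50 or more cDNAs, 55 were in Rn45s (45.8%, interval 36.7% to 55.2%), all of them in the downstream run. Of 32 sites with 100 or more, 17 were in Rn45s, and of 10 sites with 140 or more, 3 were. The highest Rn45s site ranked 3 in the list, and the deepest site elsewhere had 296 cDNAs. Of 6415 runs, the downstream run ranked 1 by cDNAs and 2 by sites, and the upstream run 7 by cDNAs and 6 by sites. No Rn45s site was without another listed site within 15 nt, whereas 1497 of the 32253 sites elsewhere (4.64%) were. The authors kept sites by their neighbourhood of 15 nt, so near neighbours are partly built into the list.

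The depth of single sites separated the runs from each other. In the downstream run 10.1% of sites had 1 cDNA (interval 8.39% to 12.1%) and 40.2% had 10 or more (37.2% to 43.2%). In the upstream run 53.1% had 1 cDNA (48.3% to 57.9%) and 2.78% had 10 or more (1.45% to 4.81%). Elsewhere in the list 66.8% had 1 cDNA and 3.87% had 10 or more. The upstream interval for 10 or more holds that 3.87%, whereas its interval for single cDNAs lies below 66.8%.

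The other dense runs compared were less deep per nucleotide than the downstream run and deeper than the upstream run. The run with the most sites in the list, on the minus strand of chromosome 19 at the locus of the nuclear long noncoding RNA Malat1, held 1887 sites at a mean of 6.36 cDNAs and 189 cDNAs per 100 nt (interval 185 to 192). It had 1 site of 50 or more cDNAs, and its longest unbroken stretch was 64 nt. The mitochondrial plus-strand run over the 12S and 16S ribosomal RNA genes held 589 sites at a mean of 7.60 cDNAs and 166 per 100 nt (161 to 171), with 15 sites of 50 or more and a longest unbroken stretch of 33 nt. Its cDNAs were more concentrated, with 22.9% in its 10 highest sites against 8.99% in the downstream run and 3.41% in the chromosome 19 run. The steady-state levels of these RNAs were not measured here, and the part of abundance in these differences was not tested.

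**Figure D4:**
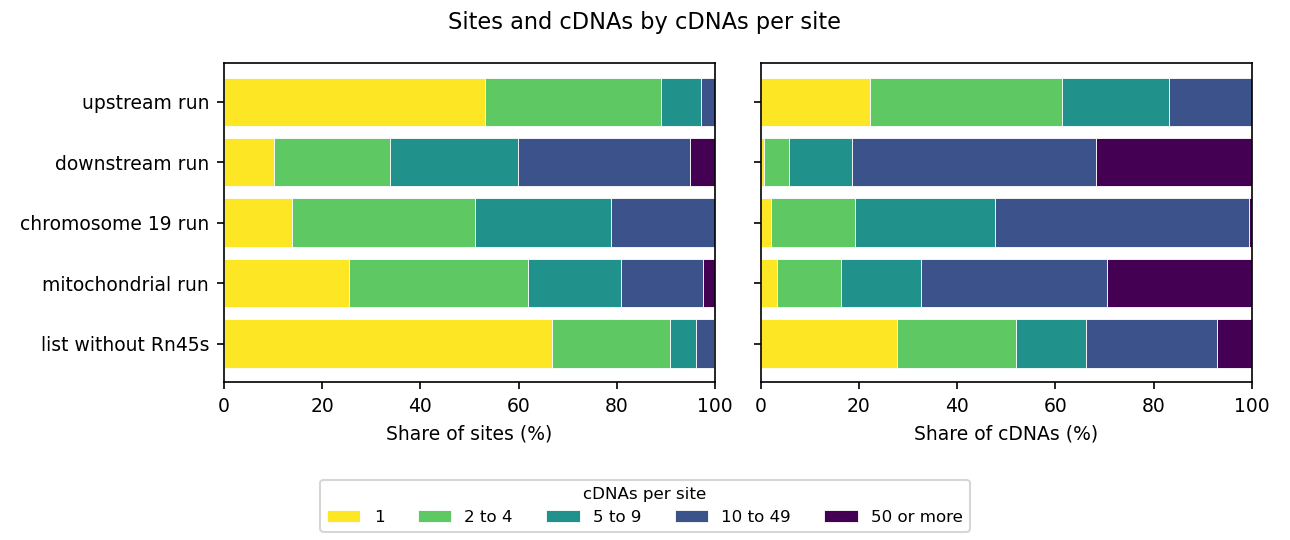
Share of sites (left, percent) and of cDNAs (right, percent) by the number of cDNAs per site, for the Rn45s upstream and downstream runs, the chromosome 19 minus-strand run, the mitochondrial plus-strand run and all sites outside Rn45s. Sites with 50 or more cDNAs hold 31.7% of cDNAs in the downstream run, 29.5% in the mitochondrial run, 0.492% in the chromosome 19 run and none in the upstream run.

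The Rn45s sites were all on the plus strand, with 0 listed minus-strand sites in the window. The nearest other plus-strand sites of chromosome 17 were at 37871623, before it, and 43565415, after it, each with 2 cDNAs, so both edges of the window lay in stretches without a listed plus-strand site and no member was close to an edge. An empty stretch means that no position passed the authors' threshold or none could be mapped there, and the list does not tell these apart. With no control group, RNA carried along in the pull-down cannot be told apart from RNA bound by SRSF4-GFP at any of these sites.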

How the data were processed

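The file analysed is a list of crosslink positions, each 1 nt wide, on mm9. The deposited score of a position is a whole number of cDNAs whose sign gives the strand; the authors added up 5 data sets, per the file header, and which of the 4 libraries each came from is not stated. Positions passed a false discovery rate of 0.05 from 100 permutations with a 15 nt neighbourhood, with Ensembl release 59, per the file header. The submitters' processing notes name Bowtie 0.10.1. Depth per library is unknown, no count model was fitted, and leaving out a library or pairing libraries was not possible.

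Rn45s and its measures were chosen with earlier results of these data known. Named were the 10 highest sites after and the 5 highest before the 4000 nt split, the 5 highest of the upstream run (added later), the first and last sites, the 3 longest gaps and unbroken stretches, and the extreme 100 nt bins. Ties went to the lower coordinate. Intervals for a ratio of densities came from the exact binomial interval of the share. The grouping of sites and the interval for a ratio were tested on simulated data, the latter with counts drawn independently. Those counts were binomial and vary less than Poisson counts. The check therefore does not show how the interval performs where cDNAs cluster. The other intervals were not tested in this way. Python 3.11.15, numpy 2.4.6, scipy 1.17.1 and matplotlib 3.10.9 were used.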

Additional observations from a re-analysis of the deposited data

How the results depend on the processing

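Of 27 alternatives, 6 were chosen after seeing the data. The value stayed within the counting interval of the reported one under 5, the number of runs was within 1.5 times under 2, and 20 moved a value beyond its interval; none reversed a ratio. The cause of the other changes was not tested unless the alternative's construction shows it. The ratio of cDNAs per 100 nt after and before the 4000 nt split, 10.4, was 9.80 at 3900 nt, 26.9 at the GRCm38 distance of 3341 nt, 11.1 for sites of 2 or more cDNAs, 9.27 without the 10 highest sites, 4.44 when nucleotides outside runs were left out, which removes the empty 2301 nt from the spacer side, and 9.76 for the runs by their own width. The share of Rn45s cDNAs after the split, 74.4%, was 75.3% at 3900 nt, 72.1% at 4100 nt, 93.4% at 3341 nt and 75.6% for sites of 2 or more cDNAs; the share of sites, 51.7%, was 48.1% at 4100 nt, 71.2% at 3341 nt and 61.0% for sites of 2 or more cDNAs. The ratio of mean cDNAs per site, 2.71, was 5.76 at 3341 nt and 1.98 for sites of 2 or more cDNAs. With those sites alone, Rn45s held 21.4% of the list's cDNAs in place of 16.7%, and 63.6% of nucleotides after the split had a site in place of 69.6%. Rn45s held 17.7% of nuclear cDNAs. The 10 highest sites held 7.90% of Rn45s cDNAs when kept at least 15 nt apart. The ratio of the last piece to the downstream run before it, 2.93, was 1.77 inside pieces. Rn45s formed 2 runs, and 3 where a gap of 100 nt ended a run. No paired analysis was possible because the list is pooled and all libraries are in 1 group.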
